A study of Mus musculus with 6 samples.

Results

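Tetraspanins are small membrane proteins that cross the membrane several times, expose a small and a large loop outside the cell, and gather integrins, proteases and receptors into patches of the cell surface. On blood cells they are known for setting where and how strongly such partners act: Cd81 organises receptors on lymphocytes, Cd9 and Cd151 sit with adhesion receptors on platelets and progenitors, and Cd63 travels in the membranes of lysosomes and secretory granules. A subgroup named TspanC8, after the cysteines of its large loop, escorts the metalloprotease Adam10 to the cell surface, and Tspan33 is the TspanC8 protein of erythroid progenitors.

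The genes described here are 10 tetraspanins, Tspan33, Tspan32, Tspan13, Cd9, Cd37, Cd53, Cd63, Cd81, Cd82 and Cd151, out of 16440 genes with values. They were taken by name, and the family was chosen by the difference of Tspan33 between the groups compared here, already known to be among the largest decreases of the table. The difference between the groups is therefore a description for these 10 genes and is given without a p-value. All 10 had values in every library and passed the filter on low values (at least 1 scaled fragment in at least 3 of the 6 libraries).

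RNA sequencing covered 6 libraries of mouse bone marrow (BM) cells of the strain FVB N/J, 3 from normal myeloid progenitors (MPs) and 3 from c-Kit+ progenitors of acute promyelocytic leukemia (APL). MPs were sorted as cells without mature lineage markers and without Sca-1 but with c-Kit, so that granulocytic, monocytic, erythroid and megakaryocytic progenitors can all be among them. The APL cells derive from hMRP8-PML/RARα transgenic mice, in which the human fusion protein is driven by a promoter of the myeloid lineage, were marked with GFP by a retroviral vector and grown in syngeneic recipients by transplantation, and were sorted for GFP and c-Kit. The study's methods describe recipients of APL cells as young mice, either not irradiated or sublethally irradiated before transplantation, and the labels give no age for either group. The 3 libraries of a group are called biological replicates without a statement that they came from separate mice, and the number of leukemias behind the APL libraries is not given. If the libraries of a group share a source, the tests measure only technical spread.

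Values are scaled fragments (the estimated number of sequenced fragments of a gene, scaled by a factor of each library) and, wherever levels of different genes are compared, FPKM (fragments scaled to transcript length and sequencing depth). Unscaled, the libraries held between 20608715 and 28382785 fragments. Differences are log2 fold changes of APL minus MP on log2(scaled fragments + 1), with their standard error (SE) from limma fitted over 14595 genes, and a gene is called when its Benjamini-Hochberg adjusted p is under 0.05 and its fold change over 1.5. By this rule 46.1% of all genes tested were called, 24.4% lower and 21.7% higher in APL. Over all genes the log2 fold change had a median of −0.10, and scaling to equal totals or voom moved it by −0.13. MP library 3 stood somewhat apart: it differed from MP libraries 1 and 2 by 0.420 and 0.419 (root mean square on the log2 scale), whereas these differed from each other by 0.347. It held the highest MP value for 9 of the 10 tetraspanins and for 56.3% of all genes. In APL, library 1 held the lowest value for 9 of the 10 and for 51.5% of all genes, and library 2 differed from libraries 1 and 3 by 0.413 and 0.400, which differed from each other by 0.367. Kit, the gene of the sorting marker, had 72.4 ± 1.96 FPKM in MPs and 40.4 ± 0.623 in APL (SD, n = 3 each), and Ly6a, which encodes Sca-1, stayed low at 1.36 ± 0.355 and 2.18 ± 0.175 FPKM.

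Of the 10 tetraspanins, 6 were called lower in c-Kit+ APL progenitors (Tspan33, Tspan13, Cd82, Cd63, Cd9 and Tspan32), 1 was called higher (Cd53), and Cd37, Cd81 and Cd151 were not called. Of all genes, 24.4% were called lower and 21.7% higher, 46.1% in either direction. The count among the 10 is a description, because this contrast chose the family. The APL values lay wholly below the MP values for 8 of the 10 and wholly above for 1, against 39.8% and 31.1% of all genes (70.9% in either direction), and the median log2 fold change of the 10 was −0.63. The sizes were far apart: Tspan33 and Tspan13 were nearly lost, Cd82 was lower by more than 2-fold, 5 others lay between 1.30-fold and 1.56-fold lower, and Cd53 was 4.48-fold higher. Without MP library 3, or with median ratio scaling, the count was 3 lower and 1 higher, because Tspan32, Cd9 and Cd63, whose fold changes are close to 1.5, were then no longer called.

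**Figure D1:**
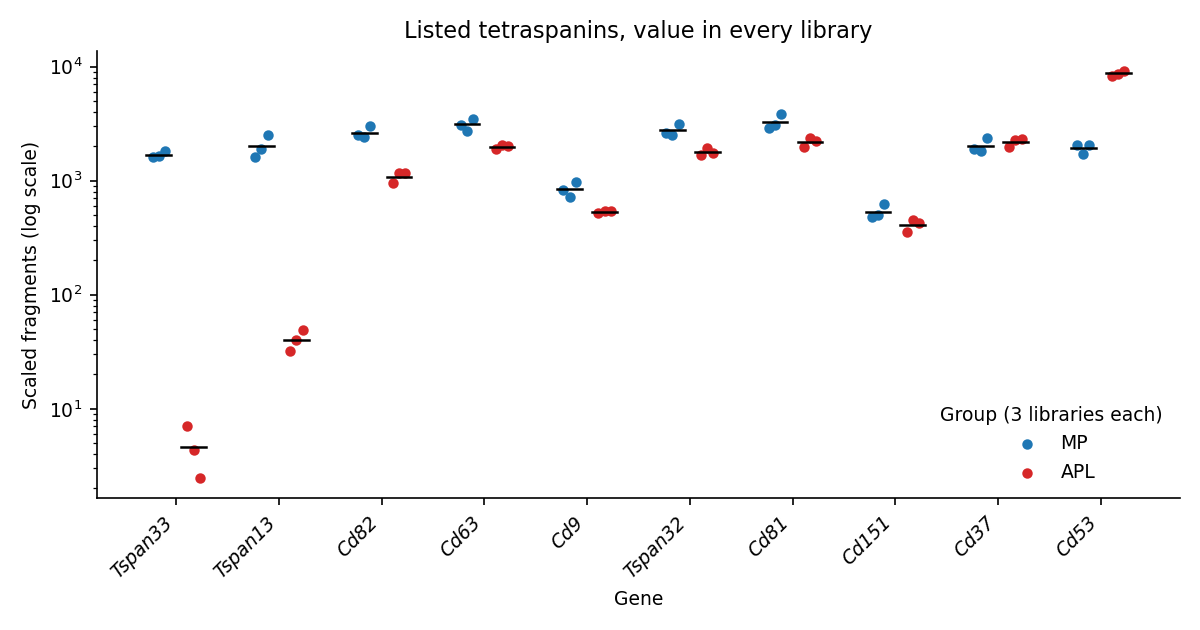
Scaled fragments (log scale) of the 10 tetraspanins in each of the 3 MP (blue) and 3 APL (red) libraries, with the group mean as a black line and genes ordered by fold change. Tspan33 and Tspan13 stand apart at the left, between 2.47 and 49.4 scaled fragments in APL, Cd53 is the single gene with all APL values above all MP values, and the groups overlap for Cd37.

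For Tspan33 and Tspan13, with the largest decreases of the 10, and Cd53, with the increase, the 250 bases before a RefSeq start site are shown. Coordinates are on GRCm38.p6, and the sequences run 5′ to 3′ on the strand of the gene. They were searched for GATAA or its reverse complement TTATC, the core motif of GATA factors, which would be in capitals.

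Tspan33, chr6:29693964-29694213, plus strand: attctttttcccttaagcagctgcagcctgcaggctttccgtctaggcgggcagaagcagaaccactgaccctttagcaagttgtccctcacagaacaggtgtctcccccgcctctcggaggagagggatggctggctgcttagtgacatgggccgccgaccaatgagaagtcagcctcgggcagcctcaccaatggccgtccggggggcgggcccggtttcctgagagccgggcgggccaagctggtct

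Tspan13, chr12:36042479-36042728, minus strand: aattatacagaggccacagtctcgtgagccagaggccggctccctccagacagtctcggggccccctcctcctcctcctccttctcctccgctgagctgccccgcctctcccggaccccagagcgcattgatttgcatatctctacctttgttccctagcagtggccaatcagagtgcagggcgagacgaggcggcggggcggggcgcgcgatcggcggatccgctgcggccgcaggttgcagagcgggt

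Cd53, chr3:106790150-106790399, minus strand: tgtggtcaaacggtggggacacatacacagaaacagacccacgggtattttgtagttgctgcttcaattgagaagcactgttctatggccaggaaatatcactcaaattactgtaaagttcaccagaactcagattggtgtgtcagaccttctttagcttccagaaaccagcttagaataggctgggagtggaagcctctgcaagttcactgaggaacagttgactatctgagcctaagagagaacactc

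Each of the 10 tetraspanins had at least 1 such window, 14 in all. GATAA stood on either strand in 2 of them, that of Tspan32 (inside which the RefSeq gene already begins), 212 bases before the start site that ends the window, and 1 of the 4 windows of Cd82, whereas 22.58% of all 32851 windows held it. The windows of Tspan33, Tspan13 and Cd53 held none, which says only that these letters are not in these 250 bases. GAGGAAG, the core of the motif of the myeloid factor PU.1, stood in 4 of the 14 windows (those of Tspan32, Cd37, Cd63 and 1 of Cd82), and in 10.61% of all windows. The windows also differed in CpG dinucleotides, with 21 in that of Tspan13, 13 in that of Tspan33, 2 in that of Cd53 and 1 in that of Tspan32, where the median of all windows was 6.

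Tspan33, also known as Penumbra, is needed for normal red cell formation in mice. Its gene (identifier 232670) spans chr6:29694255-29718558 on GRCm38, and no other gene of the table overlaps it. In the order of library number, MPs had 1612, 1643 and 1832 scaled fragments and APL had 7.07, 4.33 and 2.47. The MP values were close to each other, and the APL values rest on 6, 5 and 2 unscaled fragments, 13 in all. The log2 fold change was −8.32 with an SE of 0.28, and 1 gene of the 14595 tested had a larger decrease. As a ratio of summed fragments, the MP level was 367 times the APL level, with an exact 95% interval of 215 to 690 that covers counting error only. With so few fragments the fitted value depends on the pseudocount, from −7.49 with 5 added to −8.47 with 0.5 added, and was −5.03 with log2(FPKM + 1). Per length, Tspan33 had 34.8 ± 1.36 FPKM in MPs and 0.0948 ± 0.0471 in APL (SD, n = 3 each).

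Among genes with a mean log2 value at or above the median of the genes tested, Aqp1, Car2, Car1, Ermap and Calu had the pattern over the 6 libraries most like that of Tspan33. The root mean square difference of their centred log2 values from those of Tspan33 was 0.45, 0.58, 0.58, 0.63 and 1.08. Aqp1 is the water channel of red cells, Car1 and Car2 are carbonic anhydrases and Ermap is an erythroid membrane protein, whereas Calu encodes a calcium-binding protein of the secretory pathway. With a difference between groups this large, such a measure mainly finds genes with a decrease of the same size.

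Erythroid markers moved with Tspan33. Of 12 markers, among them Gata1, Klf1, Epor, Alas2, Ermap, Rhd, Car1 and Car2, 11 were tested. Of these, 10 were called lower, against 24.4% of all genes, with Slc4a1 the exception. The median log2 fold change was −7.22. Their summed level was between 2095 and 2637 FPKM in the MP libraries and between 15.3 and 27.3 FPKM in the APL libraries. In these bulk samples fewer cells of a type and less RNA per cell cannot be told apart, and the part of erythroid progenitors in the result for Tspan33 was not tested.

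Of the other TspanC8 genes, Tspan5 and Tspan17 were higher in APL, Tspan15 was lower and Tspan14 was not called. Tspan5 had 676, 696 and 598 scaled fragments in MPs and 1798, 1916 and 1800 in APL, a log2 fold change of 1.49 with an SE of 0.08 (adjusted p = 6.1e-07 from limma, adjusted by Benjamini-Hochberg over the whole table). Tspan17 went from 10.3, 11.4 and 13.5 to 233, 275 and 255 scaled fragments, a log2 fold change of 4.33 with an SE of 0.19 (adjusted p = 1.8e-07 from limma). Both rose, with no overlap between the groups. Tspan15 fell from 34.7, 32.4 and 31.6 scaled fragments to 0, 0.867 and 1.23, which is 2 unscaled fragments over the 3 APL libraries against 106 in MPs, or an MP level 46.2 times that of APL (exact 95% counting interval 12.5 to 386, adjusted p = 8.8e-06 from limma). Tspan14 had 1712, 1759 and 1986 scaled fragments in MPs and 1931, 2298 and 2045 in APL. These groups overlap, and its log2 fold change of 0.20 (95% interval −0.0048 to 0.41) was not called (adjusted p = 0.077 from limma). Tspan10 was at most 1 fragment in every library and was not tested.

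The levels of the TspanC8 subgroup are given next as a description, since Tspan33, whose difference chose the family, held a large share of them, and with its loss the shares of the other genes rise by arithmetic. Summed over the 6 genes the level was 71.0 to 76.2 FPKM in the MP libraries and 60.1 to 67.6 FPKM in the APL libraries. In MPs Tspan33 made up 47.4% to 47.8% of this sum, Tspan14 38.9% to 41.5%, Tspan5 9.81% to 12.2% and Tspan17 0.436% to 0.493%. In APL the shares were 0.0823% to 0.241% for Tspan33, 51.3% to 53.3% for Tspan14, 35.0% to 37.4% for Tspan5 and 11.1% to 11.8% for Tspan17. Adam10, the shared partner of the subgroup, had 45.9 ± 1.54 FPKM in MPs and 29.8 ± 1.02 in APL. Its log2 fold change was −0.61 with an SE of 0.07 (adjusted p = 4.8e-05 from limma), close enough to 1.5-fold that it was no longer called without MP library 2 (−0.58) or with median ratio scaling (−0.55). Notch1 and Notch2 are Adam10 substrates on the list of partners, which was not searched for further substrates. Notch1 rose (log2 fold change 0.80, SE 0.08, adjusted p = 2.1e-05 from limma) and Notch2 fell (−1.13, SE 0.10, adjusted p = 1e-05 from limma).

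**Figure D2:**
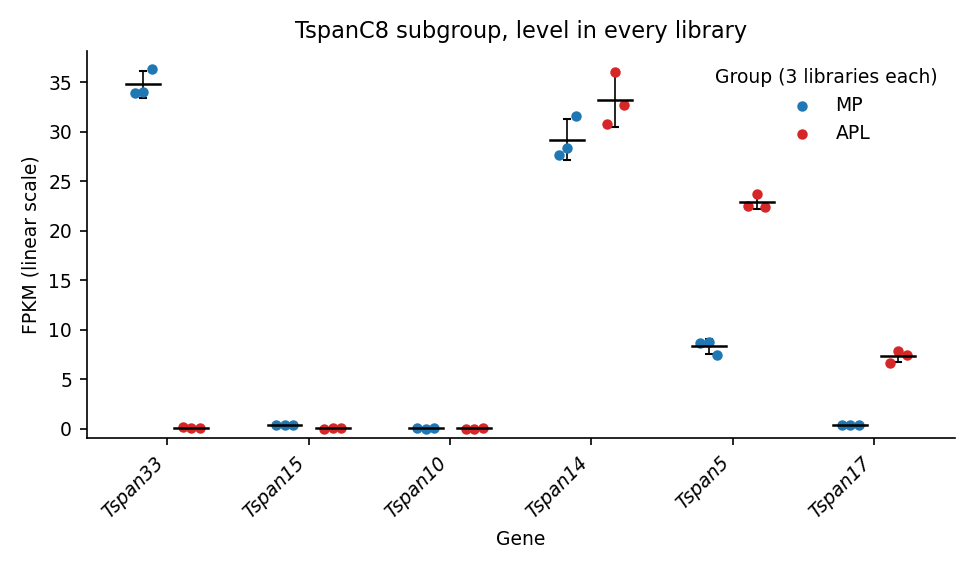
FPKM (linear scale) of the 6 TspanC8 genes in each MP (blue) and APL (red) library, with the mean as a line and bars of 1 SD (n = 3). Tspan33 has the highest level in MPs, 34.8 FPKM on average, and is near 0 in APL, Tspan14 lies at 29.2 and 33.2 FPKM, and Tspan5 and Tspan17 are higher in APL.

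Tspan13 had the other large decrease among the 10. Its gene (identifier 66109) lies at chr12:36014554-36042478. MPs had 1611, 1903 and 2515 scaled fragments and APL had 31.8, 39.9 and 49.4. The MP libraries were spread, with library 3 highest, yet the lowest MP value stood far above the highest APL value. The log2 fold change was −5.60 with an SE of 0.20, and it stayed between −5.75 and −5.43 with 1 library left out at a time. Per length the level was 44.2 ± 10.3 FPKM in MPs and 0.861 ± 0.175 FPKM in APL (SD, n = 3 each).

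Cd82, also named KAI1, is known as a suppressor of metastasis and as a surface protein of long-term repopulating stem cells. It had 2502, 2399 and 3022 scaled fragments in MPs and 945, 1158 and 1161 in APL. The groups were well separated, with a log2 fold change of −1.28 (SE 0.11), and it was called under every alternative tried. The locus in the table, chr2:93419101-93469874, is shared with Gm10804, which held at most 3 fragments in any library.

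Cd9 and Tspan32 were lower in APL by smaller amounts, and Cd151 was not called. Cd9, which binds integrins and immunoglobulin superfamily proteins on platelets and progenitors, had 834, 713 and 967 scaled fragments in MPs and 516, 546 and 546 in APL, a log2 fold change of −0.63 (SE 0.11). Tspan32, a tetraspanin of blood cells that takes part in platelet integrin signalling, had 2626, 2527 and 3145 in MPs and 1665, 1941 and 1760 in APL, a log2 fold change of −0.62 (SE 0.10). Both groups of values were separated, and both genes lay just past 1.5-fold, so that without MP library 3 (−0.52 for Cd9 and −0.53 for Tspan32) or with median ratio scaling of all 6 libraries (−0.57 and −0.56) neither was called; Tspan32 was also lost without APL library 1 (−0.57). Cd151, a partner of laminin-binding integrins, had 483, 505 and 622 scaled fragments in MPs and 357, 452 and 428 in APL. The APL values were all below the MP values, but the log2 fold change of −0.38 (SE 0.13) did not reach 1.5-fold.

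Most megakaryocytic markers moved in the same direction as Cd9 and Tspan32. Of 10 markers, among them Itga2b, Pf4, Gp9, Gp1ba, Gp5 and Vwf, 9 were tested. Of these, 7 were called lower and none was called higher, against 24.4% and 21.7% of all genes. The median log2 fold change was −5.37. Gp1bb (log2 fold change 0.08) and Ppbp (−0.57) overlapped between the groups and were not called. Their summed level was 80.6 to 118 FPKM in the MP libraries and 4.0 to 5.86 FPKM in the APL libraries. The decreases of Cd9 and Tspan32 were far smaller than this, and the part of megakaryocytic cells in them was not tested.

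Cd63, the tetraspanin of lysosomes and granules that marks degranulation of mast cells and basophils, had the highest level of the 10 in MPs. It had 3104, 2734 and 3508 scaled fragments in MPs and 1886, 2065 and 2025 in APL, with no overlap and a log2 fold change of −0.64 (SE 0.10). Without MP library 3 it was −0.55, and with median ratio scaling −0.58, and it was no longer called. The 9 mast cell and basophil markers (Cpa3, Mcpt8, Fcer1a, Ms4a2, Prss34, Cma1, Tpsb2, Gata2 and Hdc) were all tested. Of these, 7 were called lower and 1, Mcpt8, was called higher, against 24.4% and 21.7% of all genes. The summed level of the 9 was 117 to 144 FPKM in the MP libraries and 53.1 to 61.7 FPKM in the APL libraries. Mcpt8 alone had 17.4 ± 2.60 FPKM in MPs and 38.6 ± 2.75 in APL, most of the APL sum. The part of mast cells and basophils in the result for Cd63 was not tested.

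The tetraspanins of leukocytes at large took 3 courses. Cd53, found on nearly all leukocytes and needed there to keep L-selectin on the surface, had 2074, 1724 and 2056 scaled fragments in MPs and 8329, 8672 and 9143 in APL. The APL values were close to each other and far above every MP value, the log2 fold change was 2.16 with an SE of 0.09, and it stayed between 2.03 and 2.22 under every alternative. Cd37, of mature lymphoid and myeloid cells, had 1914, 1812 and 2379 scaled fragments in MPs and 1971, 2284 and 2335 in APL. The groups overlap, and its log2 fold change of 0.12 has a 95% interval of −0.14 to 0.38, which leaves room for a change in either direction but none as large as 1.5-fold; scaling to the same total turned its sign (−0.014). Cd81 had 2924, 3059 and 3813 scaled fragments in MPs and 1961, 2345 and 2250 in APL. All its APL values were lower, and its log2 fold change of −0.57 (SE 0.11), or 1.49-fold, fell just short of the fold asked for and passed it under 7 of 18 alternatives. The deposited locus of Cd81 is shared with R74862, which held 15.3 to 21.9 scaled fragments in MPs and 4.94 to 9.43 in APL.

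Lymphoid and myeloid markers moved as follows beside these genes. Of 11 lymphoid markers, among them Cd79a, Cd79b, Ebf1, Vpreb1, Cd3e, Cd4 and Nkg7, 9 were analysed here and 8 tested. Of those tested, 4, among them Cd79b, Ebf1 and Cd4, were called lower and 1, Vpreb1, higher, against 24.4% and 21.7% of all genes. The summed level of the lymphoid markers was 251 to 276 FPKM in MPs and 248 to 276 FPKM in APL, nearly all of it Nkg7 (245 ± 14.0 and 253 ± 12.6 FPKM). Cd3e was at 0 in all MP libraries. Cd3d, in contrast, had 1.02 ± 0.382 FPKM in MPs and 0.911 ± 0.188 in APL, and was not called (log2 fold change −0.10). Of 13 granulocytic and monocytic markers (Mpo, Elane, Prtn3, Ctsg, Ltf, Camp, Ngp, S100a8, S100a9, Csf1r, Cx3cr1, Ccr2 and F13a1), 7 were called higher and 4 lower. The shares over all genes were 21.7% and 24.4%. The summed level of the 13 was 20248 to 27885 FPKM in MPs and 72573 to 87176 FPKM in APL. The 4 lower ones were Ltf (log2 fold change −1.42), Ngp (−1.46), Csf1r (−1.81) and Cx3cr1 (−2.82). S100a8 alone, the highest of the list, had 8951 ± 1486 FPKM in MPs and 42909 ± 6375 in APL. The part of granulocytic cells in the increase of Cd53 was not tested.

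Per length, the order of the 10 levels differed between the groups. In MPs Cd63 was highest with 166 ± 16.9 FPKM, and Cd81 (101 ± 12.8), Cd37 (84.1 ± 10.9), Tspan32 (69.1 ± 6.83) and Cd82 (63.4 ± 5.99) followed, each overlapping the next. Tspan13, Tspan33, Cd9 (33.8 ± 4.80) and Cd53 (29.7 ± 3.55) formed a second overlapping run, and Cd151 was lowest with 11.9 ± 1.38 FPKM. These overlaps are between values of different libraries. Within each MP library the order from Cd63 through Cd82 was the same. In the second run only Tspan33 and Cd9 changed places, in MP library 3 (36.4 and 38.8 FPKM). In APL Cd53 was highest with 129 ± 2.59 FPKM, Cd63 (106 ± 5.10), Cd37 (89.8 ± 8.13), Cd81 (67.5 ± 5.91), Tspan32 (44.7 ± 3.35), Cd82 (26.0 ± 2.87), Cd9 (21.5 ± 0.617) and Cd151 (9.09 ± 1.00) followed without overlap between neighbours, and Tspan13 and Tspan33 were last. As a share of the summed FPKM of the 10 genes, Cd53 went from 4.40% to 5.08% in the MP libraries to 25.2% to 27.2% in the APL libraries. The sum itself was 584 to 716 FPKM in MPs and 464 to 516 FPKM in APL.

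**Figure D3:**
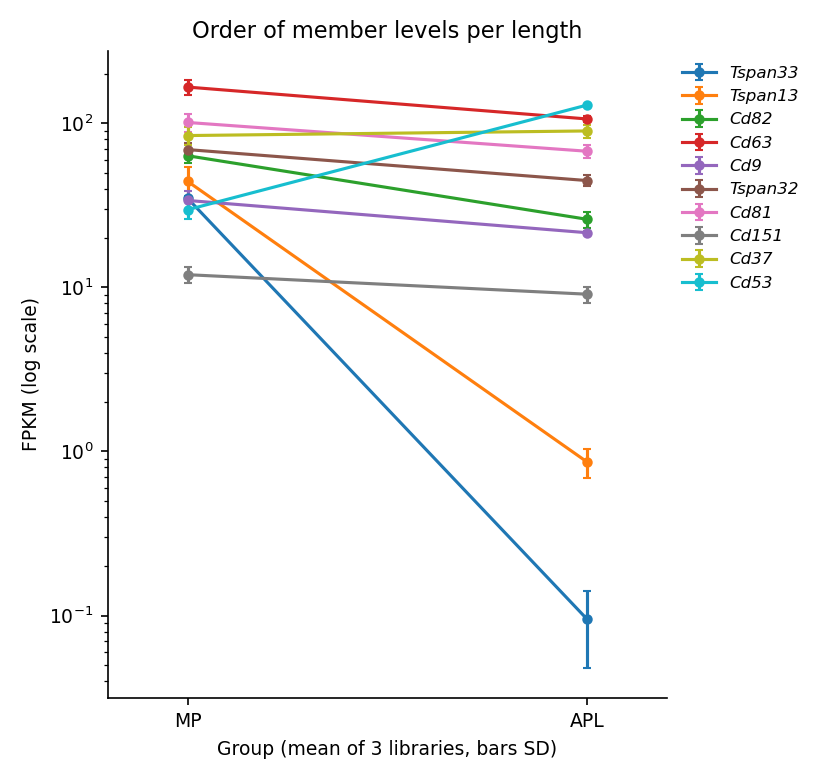
Mean FPKM (log scale, bars of 1 SD, n = 3) of the 10 tetraspanins in MPs and in APL, each gene joined by a line. Cd53 moves from ninth place in MPs to first in APL, Tspan13 and Tspan33 drop to 0.861 and 0.0948 FPKM, and Cd151 is lowest in MPs.

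Of 21 further genes of the family, 18 were analysed here (Tspan11, Upk1b and Prph2 were not) and 16 passed the filter on low values. Of these 16, 5 were lower (Tspan6, Tspan8, Tspan9, Tspan15 and Tspan18), 4 were higher (Tspan5, Tspan12, Tspan17 and Upk1a) and 7 were not called. Of all genes, 24.4% were called lower and 21.7% higher, 46.1% in either direction. The median log2 fold change of the 16 was 0.04, and that of all genes −0.10.

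The largest decreases among them were of genes with low levels in MPs. Tspan6 had 149, 154 and 244 scaled fragments in MPs, with 1 unscaled fragment over the 3 APL libraries, an MP level 516 times that of APL with an exact 95% counting interval of 92.3 to 20414. Tspan8, best known from epithelial tumours, had 131, 140 and 216 in MPs and 4 unscaled fragments in all in APL, or 115 times (44.6 to 423). Both were past the threshold (adjusted p = 5.4e-07 and 5.8e-07 from limma). Tspan9, a platelet tetraspanin, fell from 121, 150 and 87.5 to 48.3, 57.2 and 61.7 scaled fragments (log2 fold change −1.06, SE 0.23, adjusted p = 0.0029 from limma). Tspan18 had 5 to 8 unscaled fragments in the MP libraries and 0 in each APL library, at least 1.91-fold lower against a floor of 3 fragments per library (adjusted p = 1.1e-04 from limma).

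Increases came from genes known from other tissues as well as from Tspan5 and Tspan17. Upk1a, a uroplakin of the bladder lining, had 12.2, 6.67 and 4.51 scaled fragments in MPs and 124, 180 and 162 in APL, a log2 fold change of 4.23 with an SE of 0.34 (adjusted p = 6e-06 from limma). Tspan12, which acts with Frizzled receptors in the vessels of the retina, had 5 unscaled fragments over the MP libraries and 50 over the APL libraries, an APL level 11.5 times that of MPs with an exact 95% counting interval of 4.60 to 36.9 (adjusted p = 1.9e-04 from limma). Levels stayed low for both, at 5.53 ± 1.02 and 0.275 ± 0.0673 FPKM in APL.

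The remaining tetraspanins of at least 5 FPKM in a group were not called. Tspan31 had 37.9 ± 4.58 FPKM in MPs and 43.6 ± 3.00 in APL, and Tspan4 had 31.2 ± 4.55 and 25.6 ± 1.79. Tspan3 had 26.1 ± 3.44 and 19.4 ± 1.66 FPKM, and Tspan2 8.89 ± 0.353 and 12.8 ± 0.211. Their log2 fold changes were 0.20, −0.30, −0.40 and 0.55 (adjusted p = 0.10, 0.062, 0.014 and 1.5e-04 from limma), of which none reached 1.5-fold. The locus of Tspan4 is shared with Chid1, which had 7.69 ± 0.396 and 10.2 ± 0.158 FPKM, so that fragments could be divided between them, and that of Tspan2 with 2410057H14Rik, which held at most 1 fragment.

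**Figure D4:**
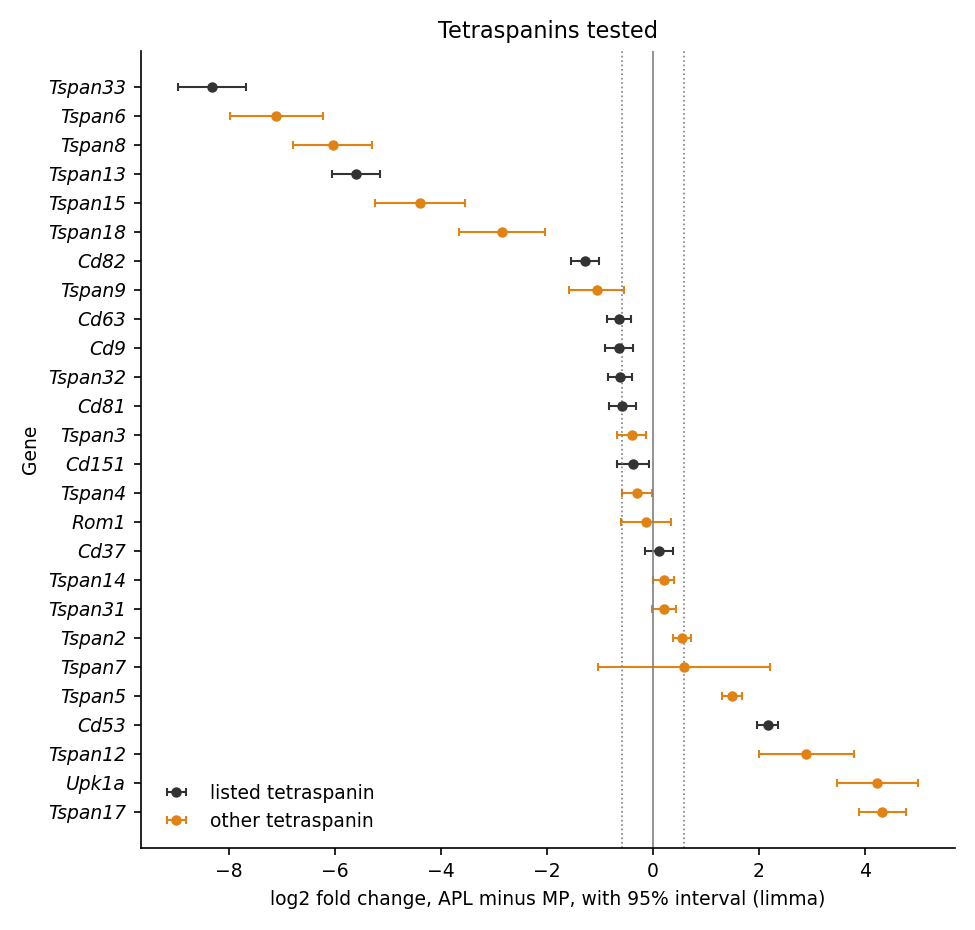
Log2 fold change (APL minus MP, scaled fragments + 1) with its 95% interval from limma for the 26 tetraspanins tested, the 10 listed ones in black and the others in orange. Dotted lines mark 1.5-fold. Values run from −8.32 (Tspan33) to 4.33 (Tspan17), and those of Tspan33, Tspan6, Tspan8, Tspan15 and Tspan18, with few APL fragments, and of Tspan12, with few MP fragments, depend on the pseudocount.

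A tetraspanin pair with at most 2 RefSeq genes between the deposited loci of its members occurred at 3 places. The deposited loci of Tspan32 and Cd81 are separated by 13135 bases on chromosome 7 with no RefSeq gene between them. Their log2 fold changes were −0.62 and −0.57. The deposited Cd81 locus starts at 143032620 and is shared with R74862, whereas RefSeq starts Cd81 further away, at 143052750. This gap and the absence of a gene in it therefore hold for the deposited loci only. Cd151 and Tspan4, 3754 bases apart on the same chromosome with 1 gene, Polr2l, between them, had −0.38 and −0.30. Cd82 and Tspan18 are 84614 bases apart on chromosome 2, and both were lower.

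Partners of tetraspanins were taken from a list of 30 genes whose proteins bind tetraspanins or are sorted by them, all of which were tested. Of these, 15 were lower and 6 higher in APL, against 24.4% and 21.7% of all genes (46.1% in either direction). The median log2 fold change of the 30 was −0.62, against −0.10 for all genes. The list shares genes with the lineage markers above, among them Itga2b and Cd4.

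The 6 decreases with the largest fold changes were those of Mmp14, a membrane protease (log2 fold change −6.89), Cd4 (−6.18), Itga2b, the platelet integrin chain (−5.56), H2-Aa, an MHC class II chain (−4.32), Prkca, a protein kinase C (−3.87), and Itgb7, the partner chain of the gut-homing integrin (−2.39). Their adjusted p was at most 2.9e-05 from limma. Mmp14 rests on 8 unscaled fragments in APL, and Cd4 on 8 and H2-Aa on 10.

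The 6 increases were smaller. Clec7a, the glucan receptor Dectin-1 that Cd37 binds, rose from 1.84 ± 0.452 to 6.21 ± 0.409 FPKM (log2 fold change 1.76, SE 0.18). Ifitm3 and Ifitm1, antiviral membrane proteins, had 1.36 and 0.76, Notch1 0.80, Prkcb 0.78 (0.58 and no longer called without MP library 3) and Itgb1, the common integrin chain that Cd9, Cd81 and Cd151 associate with, 0.66. Their adjusted p was at most 0.0046 from limma. Itgb1 went from 51.4 ± 1.71 to 80.7 ± 0.346 FPKM, and fell below 1.5-fold with quantile normalization, equal totals and voom.

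Igsf8 and Kit were named whatever their result. Igsf8, the immunoglobulin superfamily partner of Cd9 and Cd81, had 893, 909 and 1042 scaled fragments in MPs and 538, 619 and 675 in APL (log2 fold change −0.64, SE 0.11, adjusted p = 7e-04 from limma), and was no longer called without MP library 3 (−0.57) or APL library 1 (−0.55), or with median ratio scaling (−0.57). Kit, a receptor with which Cd9, Cd63 and Cd81 associate and also the sorting marker of both groups, had a log2 fold change of −0.85 (SE 0.07, adjusted p = 5.9e-06 from limma).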

How the data were processed

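The members and gene lists were chosen with earlier results of these data known. Per the file headers, the authors deposited FPKM values and estimated fragments per gene and library. The deposited fragments are a signal that the authors had multiplied by a factor of each library (0.867 to 1.23), recovered as the most frequent value near 1. Of nonzero values, 81.5% to 85.9% were within 0.01 of a whole multiple of this factor, so no count model was used to test differences. The submitters' processing notes name CASAVA 1.8, TopHat2 2.0.6 and mm10, the methods of the paper STAR to mm9, HTSeq-count and DESeq2; the tool that made the table is not given in the sources used here. Columns of other samples were not present. The exact counting intervals treat unscaled fragments, rounded to whole numbers, as counts. These intervals and the floors (3 fragments) cover counting error only.

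limma 3.58.1 in R 4.3.3 (lmFit, eBayes with trend) was fitted to log2(scaled fragments + 1) over genes of at least 1 in at least 3 libraries. It was tested on simulated data for APL against MP: with 200 of 14312 genes changed 2-fold or 4-fold, 197 (98.5%) were recovered with 2 false calls. The changed genes were not among those with few fragments, went up and down equally often, and had an assumed spread. Changes near 1.5-fold, genes with few fragments and a large share of changed genes were not simulated. The rates therefore do not carry over to such calls. Alternatives covered filters, pseudocounts, normalization, FPKM, voom, the library number as a block, thresholds and each library left out; for partners they were added after the data were seen.

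Named were the 10 tetraspanins, other tetraspanins that were called or reached 5 FPKM in a group, Adam10, Kit, Igsf8 and the 6 called partners with the largest change each way. Also named were the 3 markers of a list with the highest level, and the 5 genes nearest to Tspan33 among genes at or above the median level. Notch2 and other genes outside this rule were named after their values were seen. Promoter windows are RefSeq's on GRCm38.p6. Protein sequences were not used here. Plots used Python 3.11.15 and matplotlib 3.10.9. Some genes of the marker and partner lists count in their totals but are not reported here by name.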

Additional observations from a re-analysis of the deposited data

How the results depend on the processing

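Of 180 values of the 10 tetraspanins under 18 alternatives, 164 kept direction and call, 7 were lost, 7 gained and 2 changed sign. The lost ones were Tspan32, Cd9 and Cd63, and the gained ones Cd81. Of 238 values of 14 other tetraspanins 237 were kept and 1, Tspan2 with median ratio scaling, was gained (0.61); of 268 of 15 partners 259 were kept and 9 lost. The sign changes were Cd37, −0.014 with the same total and −0.015 with voom. The number of tetraspanins called among the 10, 7, became 4 with median ratio scaling and 4 at a fold change of 2, and with 1 library left out it lay between 4 and 8. Among the other tetraspanins, 9 became 4 with at least 1 in all 6 libraries and 5 with log2(FPKM + 1), both of which test fewer genes. Called partners were 13 at a fold change of 2 against 21. Lymphoid markers, 5, became 3 with at least 10 scaled fragments, 2 with at least 1 in all libraries, 3 with log2(FPKM + 1) and 3 with log2(FPKM + 0.1), and mast cell and basophil markers, 8, became 5 with log2(FPKM + 1). Over all genes 6725 became 4131 with log2(FPKM + 1). The cause was not tested. The erythroid, megakaryocytic and myeloid counts stayed within 1.5 times.

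With a replicate block for library number, 7 of the 10 tetraspanins were called, 9 of the others and 6753 genes in all. The numbers pair no samples by the labels, and deviations of same-numbered libraries correlated at 0.105, 0.0124 and 0.113. Depth limits Tspan33, Tspan6, Tspan8, Tspan15 and Tspan18, which rest on at most 13 APL fragments each, and Tspan12, which rests on 5 MP fragments and moved from 3.21 with 0.5 added to 1.76 with 5 added.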
